A study of Danio rerio with 9 samples.

Results

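Genes that serve the packing and export of yolk lipid in the zebrafish embryo were followed in 3 genotypes. They are 9 of the 32520 genes counted: the nuclear receptor gene hnf4a, the transfer protein gene mttp and the apolipoprotein genes apoba, apobb.1, apoeb, apoa1b, apoa2, apoc1 and apoa4b.1. They were chosen by name, and each matched 1 Ensembl identifier (apoba is listed as APOB, ENSDARG00000042780). Poly-A RNA of embryos was sequenced in 3 libraries per genotype: wild type, kdm4aa knockout and kdm4ab knockout. Kdm4aa and kdm4ab are histone lysine demethylases, and the study looked for the targets of kdm4aa after its knockout was seen to delay development. The genotype is the only difference the labels give between the groups. Neither the stage nor the strain is stated there, nor what kind of allele each knockout carries or whether embryos were pooled.

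The yolk syncytial layer is a sheet of fused nuclei and cytoplasm between the yolk and the cells of the fish embryo. It takes up yolk lipid, loads it onto apolipoprotein B in the endoplasmic reticulum with the help of microsomal triglyceride transfer protein (Mttp), and secretes the particles to the embryo. Smaller apolipoproteins such as those of the A, C and E families ride on the particle surface and steer its uptake and breakdown. In mammals HNF4A, a nuclear receptor of liver and gut, activates many apolipoprotein genes and MTTP.

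Library totals ran from 27894551 to 46156237 counts. The kdm4ab knockout replicate 2 library stood apart: counts were found for 14247 genes in it and for 22025 to 23019 in each of the other 8 libraries. It lacked 82.8% of the genes that averaged 0.05 to 1 CPM in replicates 1 and 3, but 0.217% of those between 50 and 500 CPM. Levels are in CPM, counts relative to the scaled library total, and a zero for a scarce gene in that library therefore says little. Differences of members from wild type in the kdm4ab knockout are given with and without it where both were tested. Bounds and ratios from counts summed over a group include that library and its zeros. Some other genes are given in only 1 of these ways. The kdm4ab transcript stood at 127, 168 and 121 CPM in wild type and at 2.38, 0 and 2.21 CPM in the kdm4ab knockout. That of kdm4aa stood at 18, 20.6 and 18.5 CPM in wild type and at 17.9, 14.7 and 17.2 CPM in its own knockout (log2 −0.20, SE 0.117, adjusted p 0.166), so its level does not check those labels. In the kdm4ab knockout the kdm4aa transcript stood at 13.9, 0 and 15.8 CPM, below every wild-type library. Replicate 2 of that knockout thus had no count of either gene.

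Genes were called at an adjusted p under 0.05 (edgeR, quasi-likelihood F-test, Benjamini-Hochberg adjustment over all genes tested), and every adjusted p below is from that test unless another tool is named. Each comparison was fitted on its own 6 libraries. Separate clutches or cultures are not stated for the replicates, and the p-values may therefore reflect technical spread alone. Of the 9 genes, 6 passed the filter on low counts in the comparison of the kdm4aa knockout with wild type and 5 in the comparison of the kdm4ab knockout with wild type. In the kdm4aa knockout mttp, apoeb and apoc1 rose and apoba fell, while hnf4a was not called. The test also called apoa2 higher, but that gene passed the filter only through the kdm4aa knockout and had to differ. The same holds for apoba in both knockouts and for mttp (with all libraries hnf4a too) in the kdm4ab knockout, which passed only through wild type, so the counts are a description. Of all genes tested 51.1% were called there. The 3 that rose, or 4 with apoa2, stand beside 25.2% of all genes tested called higher, and the 1 that fell beside 25.8% called lower. No member was called in the kdm4ab knockout with all 3 libraries, where 6.03% of genes tested were called (2.71% lower, 3.33% higher). At an unadjusted p under 0.05, 3 were lower and none higher, and DESeq2 called 3 lower. The calls made there with all libraries rest on each of them: leaving out any 1 wild-type library left 2 genes called of 1092, and leaving out kdm4ab knockout replicate 1 or 3 left 54 or 141. Without replicate 2, hnf4a, mttp, apoba and apoeb fell and none rose of 6 tested, with 51.1% of all genes called, 25.0% lower and 26.1% higher.

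The regulator hnf4a (HNF4A, ENSDARG00000021494) had its lowest levels in the kdm4ab knockout. Its level was 12.7, 9.46 and 11.9 CPM in wild type, at 13.4, 12.2 and 18.3 CPM in the kdm4aa knockout, and at 0.866, 0 and 0.487 CPM in the kdm4ab knockout. Every kdm4ab knockout library lay far below every library of the other genotypes, while wild type and the kdm4aa knockout overlapped. In counts, the kdm4ab knockout libraries held 43, 0 and 20 against 366 to 539 in wild type. The difference of the kdm4ab knockout from wild type was −4.61 on the log2 scale (SE 1.18) with all libraries. No p is given for that value, because hnf4a passed the filter there only through wild type. Without replicate 2 the difference was −4.04 (SE 0.271, adjusted p 1.53e-07), a level 16.5-fold lower. In whole embryos, fewer cells that express a gene and less RNA per cell cannot be told apart. The stage is not stated for any genotype, and its part in these levels was not tested. The kdm4aa knockout differed from wild type by 0.36 (SE 0.161, adjusted p 0.0725). That value was called without kdm4aa knockout replicate 2 (0.48, adjusted p 0.0294) and when no low-count filter was used (0.36, adjusted p 0.0320), and over all settings the adjusted p ran from 0.0294 to 0.869.

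**Figure D1:**
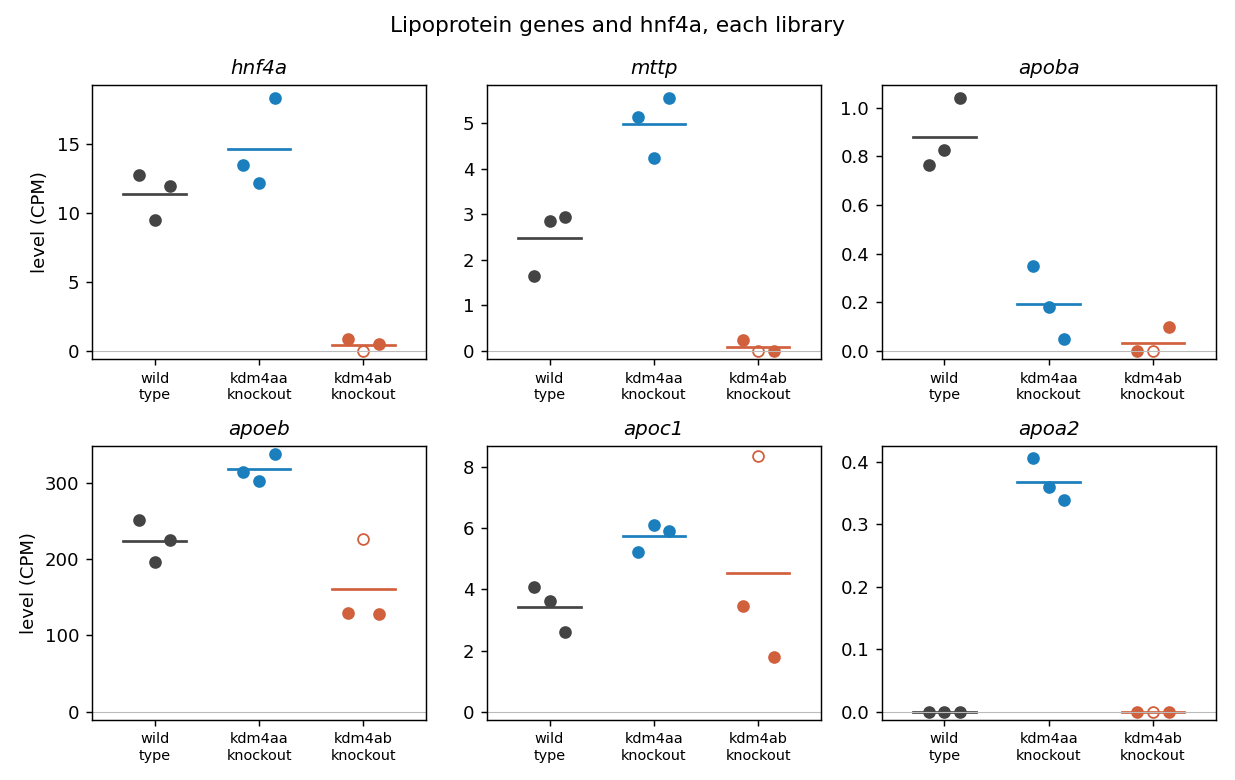
Level in CPM (y axis) of 6 genes in each library of the 3 genotypes (x axis). Points are libraries, bars are the means of 3 libraries, and the open point is kdm4ab knockout replicate 2. For hnf4a, mttp and apoba all kdm4ab knockout libraries lie at or near 0, while for apoeb and apoc1 the open point lies above the other libraries of its group.

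The gene mttp (ENSDARG00000008637), whose product loads lipid onto apolipoprotein B, was higher than wild type in the kdm4aa knockout and lower in the kdm4ab knockout. The gene was at 1.65, 2.84 and 2.95 CPM in wild type, at 5.12, 4.22 and 5.55 CPM in the kdm4aa knockout and at 0.242, 0 and 0 CPM in the kdm4ab knockout. The 3 groups did not overlap: the kdm4aa knockout was highest and the kdm4ab knockout lowest. It rose in the kdm4aa knockout by 0.996 (SE 0.238, adjusted p 0.00259), or 1.99-fold, and remained called without each of the 6 libraries in turn (adjusted p up to 0.0129). The kdm4ab knockout differed from wild type by −4.80 (SE 1.56) with all libraries and by −4.24 (SE 0.702) without replicate 2. No p is given for these differences, because mttp passed the filter there only through wild type. All 12 counts of mttp in the kdm4ab knockout came from replicate 1, against 65, 110 and 133 in wild type.

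Apolipoprotein B is the scaffold of the particle, with 1 copy in each, and zebrafish carry several genes for it. The scarce apoba was lower in both knockouts. It stood at 0.764, 0.828 and 1.04 CPM in wild type, at 0.347, 0.180 and 0.0483 CPM in the kdm4aa knockout, and at 0, 0 and 0.0973 CPM in the kdm4ab knockout. Both knockouts lay wholly below wild type, and they overlapped each other. The kdm4aa knockout differed by −2.21 (SE 0.611), and by −2.97 without kdm4aa knockout replicate 1. In the kdm4ab knockout it differed by −4.60 (SE 1.43) with all libraries and by −4.19 (SE 0.943) without replicate 2, on 4 counts in the knockout. No p is given for apoba, because it passed the filter only through wild type. Its relative apobb.1 (ENSDARG00000022767), known as a strongly expressed gene of the yolk syncytial layer, was close to the limit of detection in all groups. It held 2, 6 and 2 counts in wild type, 2, 2 and 8 in the kdm4aa knockout, and 16, 0 and 10 in the kdm4ab knockout. It passed the filter only without kdm4ab knockout replicate 2, where the 2 remaining knockout libraries lay above wild type. The difference there was 1.75 (SE 0.90) and was not called. No p is given for it, because apobb.1 passed only through the kdm4ab knockout.

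Among the smaller apolipoproteins, apoeb (ENSDARG00000040295) was well covered, with 5285 to 14003 counts per library. Apolipoprotein E is the ligand by which lipoprotein receptors take up particles, and in zebrafish apoeb also serves macrophages and microglia. It was at 251, 196 and 225 CPM in wild type, at 314, 303 and 338 CPM in the kdm4aa knockout, and at 129, 226 and 129 CPM in the kdm4ab knockout. All kdm4aa knockout libraries lay above wild type. In the kdm4ab knockout replicates 1 and 3 lay below wild type, and replicate 2 lay among its values. The rise in the kdm4aa knockout was 0.50 on the log2 scale (SE 0.0872, adjusted p 0.000188). The kdm4ab knockout differed by −0.47 (SE 0.267, adjusted p 0.343) with all libraries and by −0.80 (SE 0.101, adjusted p 3.67e-05) without replicate 2. Macrophage markers, which could share apoeb, were scarce. Of 5 listed, 3 matched a gene, 1 reached 1 CPM in any group, and their summed level was 3.78 to 5.14 CPM in wild type, 1.24 to 2.07 CPM in the kdm4aa knockout and 0 to 0.685 CPM in the kdm4ab knockout. Their part in the levels of apoeb was not tested.

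Apolipoprotein C1, which in mammals slows the clearance of particles, is encoded by apoc1 (ENSDARG00000092170). It was at 4.07, 3.62 and 2.59 CPM in wild type, at 5.21, 6.11 and 5.89 CPM in the kdm4aa knockout, and at 3.45, 8.37 and 1.80 CPM in the kdm4ab knockout. The kdm4aa knockout lay wholly above wild type, with a rise of 0.74 (SE 0.202, adjusted p 0.00615). The kdm4ab knockout overlapped wild type and differed by 0.41 (SE 0.617, adjusted p 0.735) with all libraries, and by −0.37 (SE 0.311, adjusted p 0.339) without replicate 2. The sign thus turned with that library, the highest of all 9.

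Only the kdm4aa knockout had counts of apoa2 (ENSDARG00000015866), a gene for a component of high-density particles. They were 14, 12 and 14 in its 3 libraries, or 0.405, 0.359 and 0.338 CPM, and 0 in all 6 libraries of the other genotypes. Against a floor of 3 counts per library, the level was at least 5.0-fold higher than in wild type and at least 4.71-fold higher than in the kdm4ab knockout. No p is given for it, because it passed the filter only through the group in which it was counted. That floor, like the intervals below, allows for counting error alone, since amplified reads are not separate molecules. The last 2 genes were at the limit of detection. The apolipoprotein A-I gene apoa1b (ENSDARG00000101324), known from the yolk syncytial layer, had 1 count in wild type, 0 in the kdm4aa knockout and 1 in the kdm4ab knockout. The gene apoa4b.1 (ENSDARG00000040298), of the apolipoprotein A-IV family, had 2, 0 and 12 counts in wild type, 6, 0 and 2 in the kdm4aa knockout and none in the kdm4ab knockout. Neither was tested, and no difference in them was detectable at this depth.

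**Figure D2:**
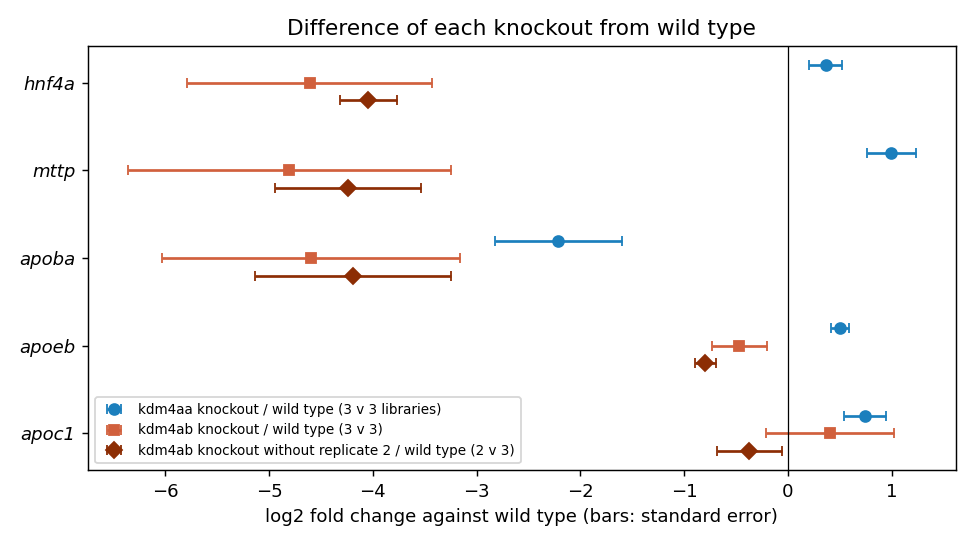
Log2 fold change against wild type (x axis) with its standard error for the 5 genes tested in both knockouts (y axis). Circles are the kdm4aa knockout, squares the kdm4ab knockout with all 3 libraries, and diamonds the kdm4ab knockout without replicate 2. The values of hnf4a, mttp and apoba in the kdm4ab knockout lie between −4.80 and −4.04, with shorter bars without replicate 2.

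A direct comparison of the knockouts tests whether they differ, and shares the knockout libraries with the comparisons above. With all libraries none of 5 tested members was called, where 7.09% of all genes were called, 2.95% higher and 4.14% lower in the kdm4aa knockout. At an unadjusted p under 0.05, 4 were higher in the kdm4aa knockout, and DESeq2 called 4 higher. Without kdm4ab knockout replicate 2, 5 of 6 were higher in the kdm4aa knockout and none lower, while 53.8% of all genes were called, 26.4% higher and 27.4% lower. These were hnf4a by 4.41 (SE 0.277, adjusted p 1.05e-09), apoeb by 1.31 (SE 0.0979, adjusted p 9.71e-09), apoc1 by 1.12 (SE 0.266, adjusted p 0.00190), mttp by 5.23 (SE 0.538) and apoa2. No p is given for mttp and apoa2, which passed the filter only through the kdm4aa knockout. With all libraries the differences were 4.97 for hnf4a, 5.78 for mttp and 0.98 (adjusted p 0.0786) for apoeb. There hnf4a too passed only through the kdm4aa knockout, so no p is given for it.

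Several of the genes sit side by side. On the RefSeq assembly GRCz12tu, which differs from the builds named in the submitters' processing notes, the order of apolipoprotein genes along the chromosome is apoa4b.1, apoa4b.3, apoa4b.2, apoeb, apoc1, apoc4, apoa2 and apoc2. The neighbours apoc4 and apoc2 encode C apolipoproteins, and in mammals the second activates lipoprotein lipase. For apoc4 the counts were 4, 4 and 0 in wild type, 13, 21 and 13 in the kdm4aa knockout and 0, 0 and 2 in the kdm4ab knockout. All kdm4aa knockout libraries lay above the others, and the gene passed the filter only through them. Its difference from wild type was 2.66 (SE 0.822), and no p is given for that reason. The call was lost without wild-type replicate 3, without kdm4aa knockout replicate 2 and in a fit of all 9 libraries. The ratio of the kdm4aa to the kdm4ab knockout was 25.9 (95% exact interval 6.78 to 220.1). For apoc2, too low to be tested, the counts were 2, 0 and 6 in wild type, 4, 8 and 9 in the kdm4aa knockout and 0, 0 and 1 in the kdm4ab knockout. At the other end apoa4b.2 had 21 to 33 counts in wild type and 12 to 21 in the kdm4aa knockout. It had 9, 0 and 14 in the kdm4ab knockout. It was not called in the kdm4aa knockout (adjusted p 0.395) or in the kdm4ab knockout. No p is given for the latter, because apoa4b.2 passed the filter there only through wild type. The gene apoa4b.3 had no count in any library. The apoa4b genes are tandem copies, and reads that they share may be split in ways the counts do not show. The order was seen beside the values and was not tested.

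**Figure D3:**
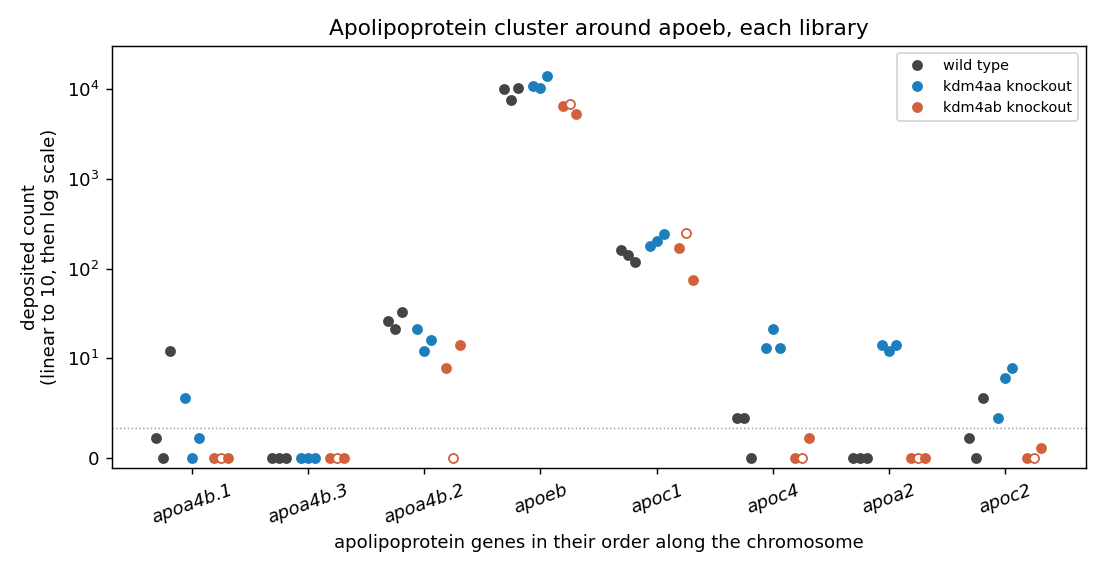
Deposited counts (y axis, linear to 10 and logarithmic above) of 8 apolipoprotein genes in their order along the chromosome (x axis) in each library. Open points are kdm4ab knockout replicate 2, and the dotted line is the floor of 3 counts. Only the kdm4aa knockout reaches 12 counts or more for apoc4 and apoa2.

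Other apolipoprotein genes were scarce. Of 16 listed, 11 matched a gene and 3 were tested in the kdm4aa knockout. Of these apoc4, described above, was called higher, beside 25.2% of all genes. None of 2 tested was called in the kdm4ab knockout with all libraries (1 lower at an unadjusted p under 0.05, and 1 lower by DESeq2). Without replicate 2, 1 of 4 fell, beside 25.0% of all genes. That gene was apom, for a carrier of sphingosine phosphate. It was at 0.789, 1.01 and 0.443 CPM in wild type and at 0.782, 0.569 and 0.555 CPM in the kdm4aa knockout. In every kdm4ab knockout library it was at 0, at least 9.56-fold lower than in wild type. No p is given for it, because it passed the filter only through wild type and had to differ. It was named after its values were seen.

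The low level of hnf4a in the kdm4ab knockout stood beside lower levels of other genes active in the yolk syncytial layer. Of 14 such genes that matched, members left out, 12 were tested and 9 fell without replicate 2, where 25.0% of all genes did. Their median was −1.31, against 0.0123 over all genes. With all libraries 3 fell, 2.71% of all genes did, and the median was −1.44, against −0.0188. The layer's own regulators differed in size. The homeobox gene mxtx2, needed to form the layer, was at 104, 71.0 and 109.7 CPM in wild type, at 95.6, 62.1 and 104 CPM in the kdm4aa knockout and at 51.7, 62.0 and 62.0 CPM in the kdm4ab knockout. All kdm4ab knockout libraries lay below wild type, by −0.74 without replicate 2 (SE 0.160, adjusted p 0.00206) and by −0.69 with it (adjusted p 0.121). Its relative mxtx1 was at 23.9 to 32.1 CPM in wild type and at 5.0, 9.44 and 4.4 CPM in the kdm4ab knockout, and fell both with replicate 2 (log2 −2.18, adjusted p 0.0275) and without it (−2.60, adjusted p 1.04e-07). The sulphate transporter gene slc26a1, a marker of the layer, had 307 counts in wild type, 424 in the kdm4aa knockout and 2 in the kdm4ab knockout. Its ratio of wild type to kdm4ab knockout was 150.2 (95% exact interval 41.2 to 1246). No p is given for it, because it passed the filter on low counts only through wild type. Both slc26a1 and gata6, which passed in the same way, are among the genes counted above as fallen, so those counts are a description. The list was also chosen with earlier results of these data known. These markers of the layer (mxtx1, mxtx2 and slc26a1) summed to 97.3 to 144.0 CPM in wild type, 89.1 to 146.7 CPM in the kdm4aa knockout and 56.7 to 71.5 CPM in the kdm4ab knockout. Their part in the lower levels of hnf4a, mttp and apoba was not tested.

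Factors that act in endoderm and liver were also measured. Of 29 matched regulators, 23 were tested, and 7 fell and 3 rose in the kdm4ab knockout without replicate 2, beside 25.0% and 26.1% of all genes, so that the share that fell was near that of all genes. With all libraries only nr1h3, the gene of a cholesterol-sensing receptor, fell, beside 2.71% of all genes. The forkhead gene foxa3 was at 40.9, 31.4 and 38.3 CPM in wild type and at 2.84, 0 and 3.41 CPM in the kdm4ab knockout (−3.56, SE 0.169, adjusted p 9.58e-09 without replicate 2, and −4.12 with it). Transcripts of the endoderm and yolk syncytial factor gata5 were at 4.86, 4.76 and 9.35 CPM against 0.242, 0 and 0.341 CPM (−4.44, adjusted p 2.63e-06 without replicate 2, and −4.96 with it). Its relative gata6, named after its values were seen, was at 4.63, 4.22 and 4.67 CPM against 0.121, 0 and 0.316 CPM (−4.39 without replicate 2 and −4.88 with it). No p is given for gata6, because it passed the filter only through wild type. With all libraries foxa3 and gata5 did so too, so no p is given for them there. None of these 3 was called in the kdm4aa knockout, where they differed by −0.05, 0.42 and −0.31 (adjusted p 0.769, 0.154 and 0.216). The leucine zipper factor gene cebpb fell by 2.77 without replicate 2 (adjusted p 1.85e-07), and with all libraries it differed by −2.04 (adjusted p 0.0740). The gene hnf4b, of the same receptor family as hnf4a, rose from 0.407, 0.414 and 0.554 CPM in wild type to 2.48 and 1.68 CPM in replicates 1 and 3 of the kdm4ab knockout. The difference was 2.17 (SE 0.409, adjusted p 0.000780), and replicate 2 had no count of it. With that library the adjusted p was 0.559. It too was named after its values were seen.

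**Figure D4:**
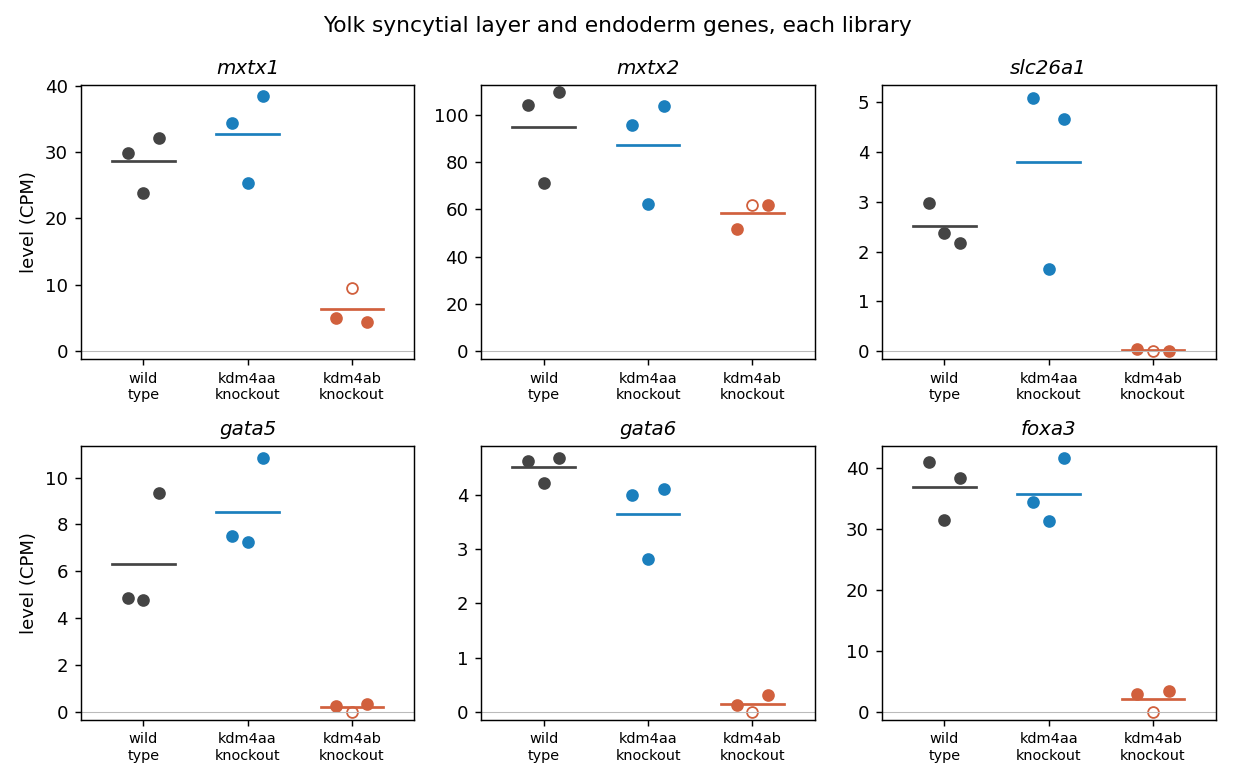
Level in CPM (y axis) of 6 genes of the yolk syncytial layer and endoderm in each library of the 3 genotypes (x axis). Points are libraries, bars are the means of 3 libraries, and the open point is kdm4ab knockout replicate 2. The kdm4ab knockout lies near 0 for slc26a1, gata5 and gata6, while for mxtx2 it lies between 51.7 and 62.0 CPM.

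In the kdm4aa knockout 2 of 22 regulators tested rose and 4 fell, where 25.2% of all genes rose and 25.8% fell. The sterol-response factor srebf2 rose from 53.8, 54.4 and 48.2 to 104, 101 and 102 CPM (0.97, SE 0.0811, adjusted p 1.27e-07). The liver and fat factor cebpa rose by 1.43 (SE 0.287, adjusted p 0.000671), from 0.815, 1.09 and 1.37 to 2.69, 2.73 and 3.48 CPM. The receptor gene nr1h3 fell from 99.8, 104 and 107 to 40.2, 42.7 and 40.4 CPM (−1.34, SE 0.0805, adjusted p 3.23e-09), and the retinoid X receptor gene rxrbb by 0.44 (adjusted p 0.00416). Of 12 yolk syncytial layer genes other than the members, 1 rose and 1 fell. These were ctsla, for a cathepsin L protease, higher by 0.26 (adjusted p 0.00788), and the T-box gene tbx16, lower by 0.54 (adjusted p 0.000450). With the tested members mttp and hnf4a counted in, 3 of 14 were called, and the count was 5 without wild-type replicate 2 or 3 and 7 without kdm4aa knockout replicate 2. The markers slc26a1 and gata5 differed by 0.60 and 0.42 and were not called (adjusted p 0.138 and 0.154).

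Genes that assemble and export lipoproteins rose more often than they fell in the kdm4aa knockout. Of 16 tested, 10 rose and 1 fell, beside 25.2% and 25.8% of all genes, and the list's median was 0.31 against −0.000966 over all genes. Of the 10, 8 encode parts of the vesicle coat or cargo receptors that carry large particles out of the endoplasmic reticulum, and the coat parts serve all secretion. The coat genes sec24c and sec23b rose by 0.49 (SE 0.0820, adjusted p 0.000148) and 0.44 (SE 0.0835, adjusted p 0.000449). The acyltransferase gene mogat2, a step of triglyceride synthesis, rose by 0.74 (SE 0.136, adjusted p 0.000327). The gene that fell, lpcat3, encodes an enzyme that enriches membranes and lipoproteins in polyunsaturated lipid, and went from 43.2, 44.4 and 42.2 to 21.1, 18.3 and 18.7 CPM (−1.16, SE 0.0976, adjusted p 1.34e-07). Of these 16 genes 1 rose and 1 fell in the kdm4ab knockout with all libraries, beside 3.33% and 2.71% of all genes. Without replicate 2, 4 rose and 3 fell, beside 26.1% and 25.0% of all genes. In the kdm4ab knockout sec23b was at 92.2, 70.7 and 101 CPM, against 48.4, 51.6 and 47.6 CPM in wild type. There lpcat3 was at 31.1, 8.97 and 33.7 CPM, below every wild-type library. Levels of mogat2 there were 9.15, 14.5 and 11.5 CPM, against 8.71, 8.12 and 6.84 CPM in wild type. Those of sec24c overlapped wild type. The coat GTPase gene sar1ab was at 6.82, 9.83 and 7.49 CPM in wild type and at 31.8, 59.2 and 26.6 CPM in the kdm4ab knockout (2.29, adjusted p 0.0263, and 1.86, adjusted p 1.52e-06, without replicate 2). The p4hb gene encodes the partner subunit that forms the transfer protein complex with Mttp, beside folding other proteins. It fell in the kdm4ab knockout by 0.75 (SE 0.144, adjusted p 0.0391) and by 0.70 without replicate 2, and in the kdm4aa knockout it differed by 0.05 (adjusted p 0.587). It was named after its values were seen.

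Of 17 receptor, lipase and lipid exchange genes tested in the kdm4aa knockout 1 rose and 3 fell, beside 25.2% and 25.8% of all genes. The receptor gene lrp6, best known as a Wnt co-receptor, rose by 0.39 (adjusted p 0.00283), and its partner lrp5 fell by 0.27 (adjusted p 0.0147). The lipase inhibitor gene angptl4 fell by 1.94 and pltp, which moves phospholipid between particles, by 1.55, from means of 1.2 and 1.26 CPM in wild type. No p is given for angptl4 and pltp, because they passed the filter only through wild type. In the kdm4ab knockout with all libraries 2 of 18 tested rose and none fell, beside 3.33% and 2.71% of all genes. There 2 were lower at an unadjusted p under 0.05, and DESeq2 called 3 higher and 1 lower. Without replicate 2, 7 of 19 rose and 3 fell, beside 26.1% and 25.0% of all genes. The scavenger receptor gene stab2 rose in the kdm4ab knockout from 6.16, 5.61 and 6.38 to 23.6, 16.7 and 23.0 CPM (1.81, SE 0.248, adjusted p 0.0176). In the same knockout lrp6 lay below wild type, at 28.9, 8.16 and 28.5 CPM against 52.9, 58.9 and 56.0 CPM. Its partner lrp5 overlapped wild type there. None of 6 fatty acid binding and uptake genes was called in the kdm4aa knockout by edgeR, where an unadjusted p under 0.05 was reached by 3 of them (2 higher, 1 lower), and none by DESeq2. Leaving out any 1 wild-type library gave 1 call. The smallest p-values there were those of slc27a2a (1.25) and fabp4a (0.85, adjusted p 0.0741). No p is given for slc27a2a, because it passed the filter only through the kdm4aa knockout. Without replicate 2, fabp3 was lower by 0.35 and scp2a higher by 0.59 in the kdm4ab knockout (adjusted p 0.0223 and 0.0360), and with it none was called, none had an unadjusted p under 0.05 and DESeq2 called none.

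Markers of other tissues were compared as a measure of what else moved. Of 10 liver genes 2 reached 1 CPM in any group, and of 6 intestine genes, 5 of them matched, 2 did. The liver gene fabp10a was at most at 0.0443 CPM, and serpina1 was at 0 in every library. The liver list summed to 1.04 to 1.82 CPM in wild type, 2.39 to 3.94 CPM in the kdm4aa knockout, and 6.07, 0 and 4.67 CPM in the kdm4ab knockout. Of the last, c3a.1 made up 4.05, 0 and 3.72 CPM, against 0 to 0.288 CPM in wild type. Enveloping layer and epidermis markers, of which 7 of 8 reached 1 CPM, summed to 501 to 646 CPM in wild type, 332 to 404 CPM in the kdm4aa knockout and 49.6 to 73.0 CPM in the kdm4ab knockout. Mesoderm markers summed to 333 to 456, 253 to 288 and 28.9 to 62.0 CPM in the same order. Most of that sum was tbx16, also listed for the yolk syncytial layer, at 309 to 428 CPM in wild type and 28.9 to 58.5 CPM in the kdm4ab knockout. Of 4 mesoderm genes tested, 3 fell in the kdm4ab knockout without replicate 2, beside 25.0% of all genes, and tbx6 overlapped wild type. Neural plate markers summed to 239 to 321, 242 to 284 and 132 to 150.5 CPM in that order. Endoderm markers, 3 of 4 matched, summed to 3.23 to 3.41 CPM in wild type, 2.0 to 4.43 CPM in the kdm4aa knockout and 0 to 1.67 CPM in the kdm4ab knockout. Of these sox32 was at 1.99, 2.64 and 2.35 CPM in wild type and at 0.0806, 0 and 0.146 CPM in the kdm4ab knockout. The scarcer sox17 lay below wild type too. In kdm4ab knockout replicates 1 and 3 foxa2 went the other way, at 1.59 and 1.05 CPM against 0.942, 0.672 and 0.930 CPM in wild type. Germ cell markers summed to 391 to 453 CPM in wild type, 438 to 601 CPM in the kdm4aa knockout and 348 to 470 CPM in the kdm4ab knockout. In the kdm4aa knockout 3 of 4 germ cell markers were called higher, beside 25.2% of all genes, and their median was 1.34. In the kdm4ab knockout 2 of 4 rose and 1 fell without replicate 2, beside 26.1% and 25.0% of all genes. With all libraries none was called there. In every kdm4ab knockout library nanos3 and dnd1 lay above wild type and ddx4 below it, while dazl overlapped it. The part of germ cell markers in the members that rose in the kdm4aa knockout was not tested. The lower levels of hnf4a, mttp and apoba in the kdm4ab knockout thus stood beside lower summed markers of several embryonic layers. Not every gene of those lists fell, and the part of these layers in the lower levels was not tested.

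The genes most like hnf4a were sought over the 8 libraries without kdm4ab knockout replicate 2, among 11221 genes of at least 5 CPM, by Pearson's correlation of log2(CPM + 1). They were mapre1b (0.997), ppp1r9ala (0.997), NOL8 (0.996), zgc:55558 (0.995) and mxtx1 (0.995). With 3 genotypes in 8 libraries such values mostly reflect the order of the genotypes, and they carry no p. The genes most like the mean profile of the 9 members were ENSDARG00000109360 (0.990), LYPLA2 (0.988), NFYA (0.987), cyp2x7 (0.983) and faub (0.982). That profile averaged values scaled to the same spread for each member (z scores), so members at the limit of detection weighed as much as apoeb. A correlation over 0.9 was reached by 969 of the 11221 genes with hnf4a and by 681 with the mean profile.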

How the data were processed

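The authors deposited 1 table of whole-number counts per Ensembl gene, not normalized, with 1 column for each of 9 libraries. Per the labels' protocols, RNA was extracted with Trizol, selected on poly-T beads and copied with random hexamers. The submitters' processing notes name the builds GRCz11 and danRer11. Aligner, counter, annotation release and strandedness: not given in the sources used here. Symbols came from a table covering 29201 of the 32520 identifiers, and list names carried by several identifiers were left out.

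The test was the two-sided quasi-likelihood F-test of edgeR 4.0.16 (R 4.3.3) on the 6 libraries of each comparison, after filterByExpr and TMM scaling (trimmed mean of M values). SE is the absolute log2 value over the square root of F. Levels are CPM from TMM over 9 libraries. The fits were tested on simulated data, with no outcome reported here. Alternatives were DESeq2 1.42.0, RLE and upper-quartile scaling, no filter, 8 or 9 libraries, a replicate block and leaving out each library. The chi-square between any pair of replicates was at least 10.2 per gene. The members and lists were chosen with earlier results of these data known. Named from each list were up to 4 genes with the smallest p in the kdm4aa knockout and up to 2 in the kdm4ab knockout without replicate 2, at a mean of at least 1 CPM in a group, plus the 5 genes most like hnf4a and the 5 most like the members' mean profile.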

Additional observations from a re-analysis of the deposited data

How the results depend on the processing

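In the kdm4aa knockout against wild type, 5 members and 9290 genes were called. The members' directions held under every setting run. The counts were 0 members and 1687 genes when all 9 libraries shared 1 spread, which kdm4ab knockout replicate 2 widened (common biological coefficient of variation 57.2% with it and 13.2% without it in the kdm4ab comparison with wild type). Leaving out each library gave 5 to 6 members and 7963 to 8817 genes. In the kdm4ab knockout against wild type, 0 members and 1092 genes were called. There were 3 and 3477 with DESeq2, 3 and 3232 with 9 libraries, and 4 and 9848 with 8 libraries. Leaving out each library gave 0 to 4 members and 2 to 9777 genes, the highest of both without kdm4ab knockout replicate 2. In the kdm4aa against the kdm4ab knockout, 0 members and 1259 genes were called. There were 4 and 3452 with DESeq2, 4 and 3457 with 9 libraries, 5 and 10499 with 8 libraries, and 828 genes with no filter. Leaving out each library gave 0 to 5 members and 1 to 10169 genes. Replicate numbers are shared between groups, but same-numbered libraries did not deviate together (correlations −0.110 to 0.233). With a replicate block the members called were 5, 0 and 0, and the genes called 8879, 0 and 2. The sign of apoc1 turned with single libraries. Against wild type the kdm4ab knockout differed by −0.37 to 0.78 when each library was left out, with the lowest value without its replicate 2, and by −0.37 with 8 libraries. Between the knockouts apoc1 differed by −0.044 to 1.12, with the lowest value without kdm4ab knockout replicate 3. No scaling moved the median of all genes by over 0.1. Genes under about 10 counts per library, such as apobb.1, apoa1b and apoa4b.1, are limited by depth.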
